A study of Homo sapiens with 6 samples.

Results

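miR-129 is a small family of microRNAs (miRNAs) made from 2 genes, MIR129-1 and MIR129-2, whose hairpin transcripts give the same 5p arm and nearly the same 3p arm. Of the 413 miRNAs in the table of small RNA sequencing values from MDA-MB-231 cells, 2 have names that start with hsa-miR-129- (with the hyphen), hsa-miR-129-5p and hsa-miR-129-2-3p. They were selected on the values of this table, for a rise of both arms in cells given Withaferin A, so their difference between the groups is given as a description and is not tested. MDA-MB-231 is a long-established line of human triple-negative breast cancer cells, and Withaferin A (WA) is a steroidal lactone of the plant Withania somnifera. The WA group is 3 libraries of cells exposed to 2 µM WA for 24 h, and the vehicle group is 3 libraries of cells of the same line kept for 24 h without WA. The study's methods name DMSO as the vehicle, which the sample labels do not mention. All cells were of this 1 line.

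A miRNA hairpin is cut from a longer transcript in the nucleus and trimmed by Dicer in the cytoplasm, after which 1 arm is usually loaded into Argonaute as the guide and the other is mostly lost. The guide pairs with target mRNAs mainly through its seed, the bases near its 5′ end. miR-129-5p is best known from brain and from neurons. In several carcinomas the CpG island at MIR129-2 is methylated and the miRNA is low, and SOX4 and CDK6 are among its known targets.

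The mature sequences are shown because they decide which gene a read can be assigned to. They are given 5′ to 3′ from RefSeq (GRCh38.p14), with the seed, bases 2 to 8, in capitals.
hsa-miR-129-5p: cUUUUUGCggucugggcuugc
hsa-miR-129-1-3p: aAGCCCUUaccccaaaaaguau
hsa-miR-129-2-3p: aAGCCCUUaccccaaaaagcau
The 21 bases of miR-129-5p occur in 2 of the 1562 hairpins of the RefSeq table, those of MIR129-1 and MIR129-2, so its reads cannot be divided between the genes. The 3p arms have 22 bases each and differ by 1 substitution, U20C, written with the base of miR-129-1-3p first, its position from the 5′ end, and the base of miR-129-2-3p. This base lies outside the seed, and the seed of both 3p arms is AGCCCUU. Each 3p sequence occurs in 1 hairpin only. miR-129-1-3p was not analysed here, and the rule by which the authors assigned reads that match both 3p arms is not given in the sources used here, so the value of miR-129-2-3p may hold reads of either gene. RefSeq gave a mature sequence for 368 of the 413 miRNAs. Among these, no other miRNA had the seed of miR-129-5p or of miR-129-2-3p. The closest other sequence was 9 edits away from miR-129-5p (miR-200a-5p, with miR-30a-3p at the same distance) and 10 edits away from miR-129-2-3p (miR-1249-3p).

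The hairpins are shown to place both arms within them, with the arms in capitals.
MIR129-1: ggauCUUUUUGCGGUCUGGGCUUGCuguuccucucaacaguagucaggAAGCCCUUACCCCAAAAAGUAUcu
MIR129-2: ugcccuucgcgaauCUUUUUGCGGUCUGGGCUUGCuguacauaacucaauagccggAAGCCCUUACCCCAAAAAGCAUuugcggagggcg
The hairpin of MIR129-1, 72 bases long, is at chr7:128207872-128207943 (plus strand, GRCh38). Its 5p arm runs from 128207876 to 128207896 and its 3p arm from 128207920 to 128207941. The hairpin of MIR129-2, 90 bases long, is at chr11:43581394-43581483 (plus strand, GRCh38), with its 5p arm from 43581408 to 43581428 and its 3p arm from 43581450 to 43581471. The arms are separated by 23 bases in MIR129-1 and by 21 in MIR129-2. By RNAfold the minimum free energy was -29.5 kcal/mol for MIR129-1 and -48.6 kcal/mol for MIR129-2, and each predicted structure had 16 base pairs between the arms.

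Both genes lie outside protein-coding genes in the GENCODE release 44 annotation. MIR129-1 is intronic in 1 long noncoding RNA (ENSG00000292309), and the nearest coding gene is LEP, which encodes leptin, 33334 bases away. MIR129-2 is intronic in 2 overlapping long noncoding RNAs (ENSG00000283217 and ENSG00000283341), and the nearest coding gene is TTC17 at 86460 bases. The DNA around the hairpins differed in composition. The 1001 bases centred on MIR129-2 held 68 CpG dinucleotides, an observed-to-expected ratio of 0.783, and those centred on MIR129-1 held 8, a ratio of 0.106. DNA methylation was not measured in these samples.

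Both members were highest in WA replicates 1 and 2 and much lower in WA replicate 3. Values are normalized values, that is, reads divided by a size factor of the library. The table holds them as whole multiples of 1 step per library for 100% of the miRNAs, and numbers of reads take 1 step as 1 read. WA replicates 1 and 2 stood apart from the other 4 libraries. They had 166 and 146 of the 413 miRNAs listed at 0, against 52 in WA replicate 3 and 2 to 21 in the vehicle libraries. They were also the only libraries in which miR-155-5p, a marker of this cell line, was above a few reads. In this marker the other 4 libraries went against the cell line on their labels. The other markers listed for this line were abundant in these 4 libraries, the lowest value being 7569, for miR-125b-5p in vehicle replicate 3. As given below, WA replicates 1 and 2 had higher sums of stromal markers than the other libraries. Their epithelial and blood markers were at or near 0. Whether labels and libraries match was not tested. The vehicle libraries held 710878 to 4778066 reads and the WA libraries 156442 to 2232934.

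The normalized value of miR-129-5p was 62.3 in vehicle replicate 1, 6.85 in replicate 2 and 13.4 in replicate 3, which are 46, 24 and 44 reads. In WA replicates 1 to 3 it had 2179.8, 2905 and 63.9, which are 376, 1626 and 85 reads. The WA libraries lay above the vehicle libraries, but the lowest WA value was only 1.02 times the highest vehicle value. WA replicates 1 and 2 were at 35.0 and 46.6 times vehicle replicate 1. The group means were 27.5 ± 30.3 (SD, n = 3) for vehicle and 1716 ± 1476 (SD, n = 3) for WA, a ratio of 62.3. On the scale of log2(normalized value + 1), the difference was 5.27 with a standard error of 1.69.

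miR-129-2-3p had a normalized value of 144 in vehicle replicate 1 and was listed at 0 in vehicle replicates 2 and 3. In WA replicates 1 to 3 it had 1154, 523 and 12.02. The groups overlapped, since WA replicate 3 was at 0.0837 times vehicle replicate 1. These values were 106, 0 and 0 reads with vehicle and 199, 293 and 16 reads with WA. The vehicle libraries without a read of this arm were the deepest. There a floor of 3 reads is a normalized value of 0.857 in vehicle replicate 2 and 0.917 in vehicle replicate 3. This floor was a chosen setting. Lower values above 0 were listed, such as 0.571 for miR-145-5p in vehicle replicate 2. Only 3 of the 413 miRNAs were listed at 0 in vehicle replicate 2 and 2 in vehicle replicate 3, and miR-129-2-3p was the 1 miRNA in both sets. The group means were 47.9 ± 82.9 (SD, n = 3) for vehicle and 563 ± 572 (SD, n = 3) for WA, a ratio of 11.8. The difference on the log2(normalized value + 1) scale was 5.25 with a standard error of 2.52, and this value depends on the 1 added to the libraries listed at 0.

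**Figure D1:**
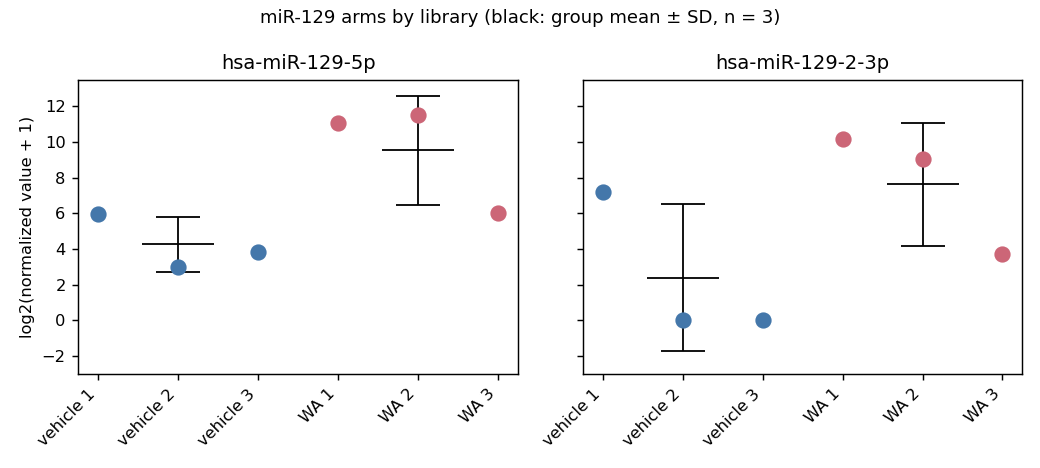
The log2(normalized value + 1) of hsa-miR-129-5p and hsa-miR-129-2-3p is plotted for each of the 6 libraries, vehicle in blue and WA in red, with black bars for the group mean ± SD (n = 3). WA replicates 1 and 2 stand above the other libraries for both arms, while WA replicate 3 is level with vehicle replicate 1 for the 5p arm and below it for the 3p arm.

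Without the size factors, WA replicates 1 and 2 still stood apart, but WA replicate 3 changed place with vehicle replicate 1 for the 5p arm. In CPM, where the reads of every library are scaled to the same total, miR-129-5p was at 64.7, 5.02 and 10.5 in vehicle replicates 1 to 3 and at 2403, 2878 and 38.1 in WA replicates 1 to 3, with WA replicate 3 below vehicle replicate 1. Its exact Poisson 95% interval was 30.4 to 47.1 CPM in WA replicate 3 and 47.4 to 86.3 CPM in vehicle replicate 1. miR-129-2-3p was at 149 CPM in vehicle replicate 1, with an interval of 122 to 180, and at 7.17 CPM in WA replicate 3, with an interval of 4.10 to 11.6. These intervals cover counting error only. In WA replicates 1 and 2 it was at 1272 and 519 CPM.

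Ranks within a library need no scaling. miR-129-5p ranked 215, 336 and 304 among the 413 miRNAs in vehicle replicates 1 to 3 and 43, 42 and 196 in WA replicates 1 to 3, where rank 1 is the most abundant. miR-129-2-3p ranked 166 in vehicle replicate 1 and among the lowest miRNAs, listed at 0, in the other vehicle libraries. Its ranks in WA replicates 1 to 3 were 63, 94 and 282. At its highest share, in WA replicate 2, miR-129-5p made up 0.288% of the reads.

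Both members passed the filter on low values, under which 3 or more libraries had to reach a normalized value of 10. It kept 327 of the 413 miRNAs. For both, the 3 WA libraries alone were enough to pass it, and miR-129-2-3p reached 10 in only 1 vehicle library. All WA libraries lay above all vehicle libraries for 1 of the 2 members, miR-129-5p, and for 25 of the 327 tested miRNAs, or 7.65%. The members were chosen on this contrast, and nothing is read from this count.

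When single libraries were removed, the log2 difference of miR-129-5p ran from 4.28 without WA replicate 2 to 7.03 without WA replicate 3. That of miR-129-2-3p ran from 3.98 without WA replicate 1 to 7.64 without vehicle replicate 1. Every one of these differences was in the direction of higher values with WA. The arms were chosen for that direction, and for miR-129-5p, whose groups do not overlap, removing a library could not reverse it. Nothing is read from it.

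The balance between the arms also varied more within the groups than between them. The 5p arm made up 30.3% of the 152 miR-129 reads in vehicle replicate 1, with an exact binomial 95% interval of 23.1% to 38.2%. In vehicle replicates 2 and 3 all 24 and all 44 reads were of the 5p arm, with intervals from 85.8% and 92.0% upward. In WA replicates 1 to 3 the share was 65.4% of 575 reads, 84.7% of 1919 and 84.2% of 101, with intervals of 61.3% to 69.3%, 83.0% to 86.3% and 75.6% to 90.7%. The 3p arm was thus the larger only in vehicle replicate 1. The mean share was 76.8% ± 40.3 (SD, n = 3) in vehicle-treated and 78.1% ± 11.004 (SD, n = 3) in WA-treated cells, so the means differed by far less than the spread between replicates. With reads summed over the libraries of a group, the shares were 51.8% and 80.4%. The intervals cover counting error only, and because the 5p arm comes from 2 genes and the 3p arm is named for 1, the share is not that of a single hairpin.

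**Figure D2:**
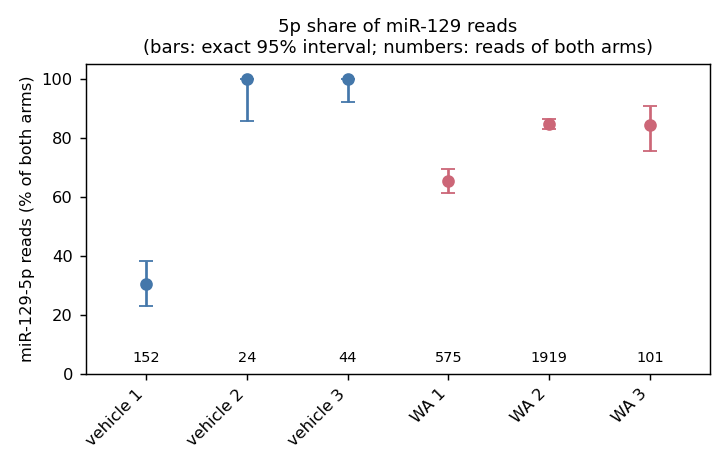
The percentage of miR-129 reads that are miR-129-5p is plotted for each library, vehicle in blue and WA in red, with exact binomial 95% intervals and the number of reads of both arms printed at the bottom. Vehicle replicate 1 is the only library in which the 5p arm holds the smaller share, 30.3% of 152 reads.

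Other hairpins give a scale for this. For 78 pairs of tested arms that lie on 1 hairpin of the RefSeq table, the range of the 5p share over the 6 libraries had a median of 14.2 percentage points. For miR-129 it was 69.7 points, and 7 of the 78 pairs had a wider range. Among the 62 pairs with at least 20 reads of both arms in every library the median was 13.2 points, and 3 pairs were wider. The larger arm was not the same in all libraries for 19 of the 78 pairs and for 12 of the 62. The profiles of the miR-129 arms, centred on their own means, differed by a root mean square of 1.63 on the log2(normalized value + 1) scale. The median over the 78 pairs was 1.72. The miR-129 arms were chosen for a rise of both, which brings their profiles closer by construction. Nothing is read from their place among the pairs.

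The miRNAs with the most similar profiles were found by the smallest root mean square difference of log2(normalized value + 1) over the 6 libraries, after each profile was centred on its mean. For miR-129-5p the closest of 326 tested miRNAs was miR-31-5p, at 0.581, against a median of 3.90 over all. miR-31-5p, which is known as a suppressor of breast cancer metastasis, had vehicle values of 33.9, 5.43 and 8.86 and WA values of 2777, 3005 and 23.3, in replicate order. Like miR-129-5p it was high in WA replicates 1 and 2 only, and its WA replicate 3 lay below its vehicle replicate 1. Its seed, GGCAAGA, is not that of either arm of miR-129. The next were miR-147b-5p (1.28), miR-130b-3p (1.51), miR-193a-5p (1.60) and miR-152-3p (1.60). miR-129-2-3p came 6th.

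For miR-129-2-3p the closest profile was that of miR-129-5p at 1.63, against a median of 4.72. It was followed by miR-31-5p (1.77), miR-193a-5p (2.01), miR-362-5p (2.09) and miR-502-3p (2.21). The last of these, from a cluster in an intron of CLCN5 on the X chromosome, had 429 in vehicle replicate 1, 9.42 and 10.7 in vehicle replicates 2 and 3, and 330, 275 and 166 in WA replicates 1 to 3. It thus shared with miR-129-2-3p a high value in vehicle replicate 1. These likenesses rest on 6 libraries and describe them. The profiles include the difference between the groups on which the members were chosen, so miRNAs higher with WA lie closer by construction.

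**Figure D3:**
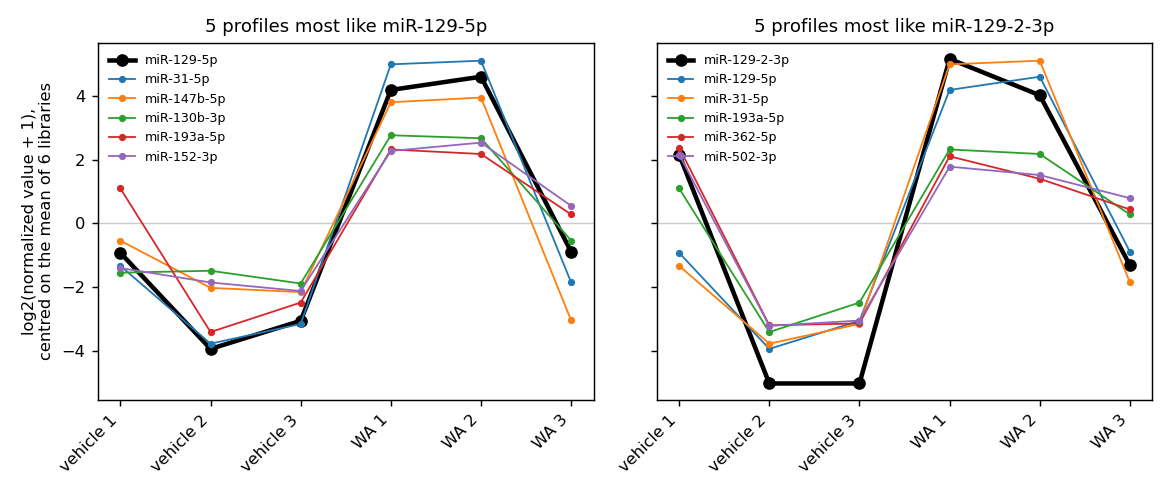
Each line joins the values of 1 miRNA in the 6 libraries, on the log2(normalized value + 1) scale centred on its own mean, for miR-129-5p (left, black) and miR-129-2-3p (right, black) and for the 5 tested miRNAs with the closest profiles. The profile of miR-31-5p follows that of miR-129-5p with a root mean square difference of 0.581.

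The libraries in which miR-129 was high also differed from the rest in markers of cell type. All 7 miRNAs listed as abundant in MDA-MB-231 were found, and their normalized values summed to 315695 to 608202 per vehicle library and to 400097 to 493928 per WA library. Among them miR-155-5p was listed at 2.71, 0 and 1.22 in vehicle replicates 1 to 3 and at 26488, 24844 and 3.01 in WA replicates 1 to 3. This miRNA, known for its high level in this cell line, was thus near 0 in all vehicle libraries and in WA replicate 3, where 2, 0, 4 and 4 reads were counted. Of the 6 epithelial miRNAs, which are low in this line, 4 were listed. miR-200a-3p, miR-200b-3p, miR-200c-3p and miR-429 summed to between 192 and 1820.4 in the vehicle libraries and to 1240.4 in WA replicate 3, and all were listed at 0 in WA replicates 1 and 2. Those were the shallowest libraries. The vehicle values of miR-429, 15.7 in replicate 2 and 15.0 in replicate 3, lay below the floor of WA replicate 1, 17.4. They lay above the floor of WA replicate 2, 5.36. miR-200a-3p, miR-200b-3p and miR-200c-3p were above both floors in every vehicle library. Their lowest value there was 29.0, for miR-200a-3p in vehicle replicate 3. The part of depth in these zeros was not tested.

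Of the markers of other cells, 3 of 5 stromal miRNAs were listed, with sums from 16.3 to 58.3 among vehicle libraries and, in the order of the WA replicates, of 4464, 5826 and 99.9. These sums were mostly miR-199a-3p and miR-143-3p. Of 7 blood miRNAs 1 was listed, miR-486-5p, at 492 to 911 with vehicle and at 0, 5.36 and 1223 in WA replicates 1 to 3. The liver miRNA miR-122-5p was at most 14.3 in any library. Of the 2 neural miRNAs only miR-9-5p was listed, at 77.2 to 359.8 with vehicle and at 522, 613 and 104 in WA replicates 1 to 3. The part of these differences in the values of miR-129 was not tested.

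**Figure D4:**
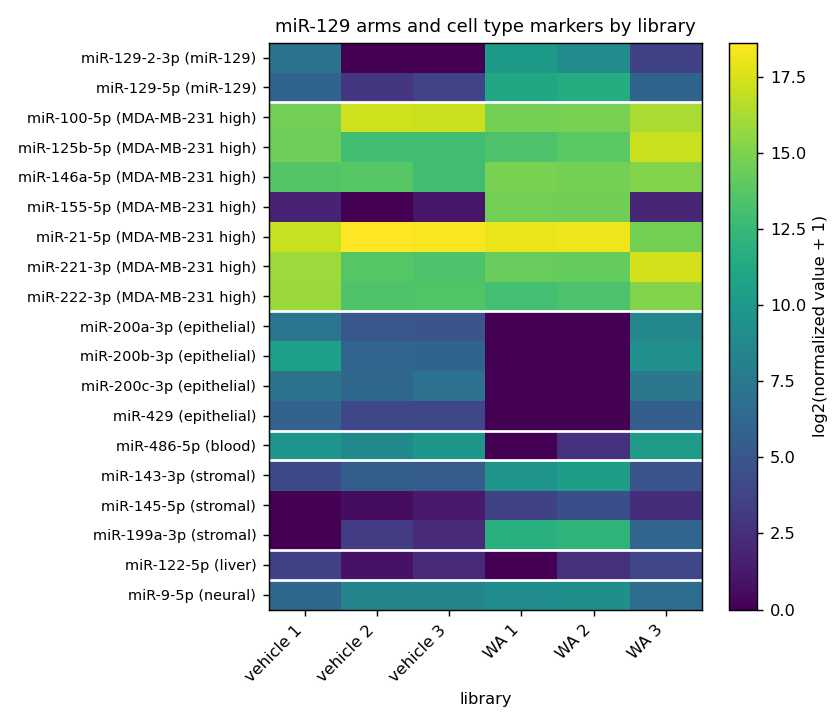
The log2(normalized value + 1) of the miR-129 arms and of the listed cell type markers is shown by colour for each of the 6 libraries, with white lines between the marker lists. WA replicates 1 and 2 share high miR-129-5p, miR-155-5p and miR-199a-3p with the miR-200 family listed at 0, and WA replicate 3 is near the vehicle libraries for miR-155-5p, while its miR-199a-3p, 66.1, is above all of theirs.

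Because miR-129 is enriched in brain, other miRNAs known for high levels in brain or neurons were compared between the groups. Of 12 listed arms of these families, 10 were tested, and 0 had an adjusted p under 0.05 by limma, with 0 at an unadjusted p under 0.05. Over all 327 tested miRNAs limma called 0.306% higher and 5.20% lower in WA-treated cells, and 26.3% had an unadjusted p under 0.05. The median log2 difference of the 10 was -1.06 and that of all tested miRNAs was -0.91, and the values of the 10 ran from -3.26 for miR-218-5p to 1.33 for miR-9-3p. In replicate order, miR-9-3p had vehicle values of 28.4, 10.9 and 11.003 and WA values of 226, 291 and 0. Its values were high in WA replicates 1 and 2, as were those of miR-129, and at 0 in WA replicate 3. miR-138-5p had vehicle values of 368, 572 and 541 and WA values of 63.8, 130.4 and 1074, so it was low in WA replicates 1 and 2 and high in WA replicate 3. miR-128-3p ranged from 1614 to 4594 with vehicle and from 2358 to 4384 with WA, with overlapping groups. Without WA replicate 3, limma called 1 of the 10 higher (miR-9-3p) and 2 lower (miR-132-3p and miR-138-5p), when it called 9.79% of all tested miRNAs higher and 35.2% lower.

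A further list held miRNA genes known for methylated promoters in cancer cells, as MIR129-2 is. Of 21 listed arms 19 were tested. None, 0 of 19, passed an adjusted p of 0.05 by limma. At an unadjusted p of 0.05 there were 2 of 19, miR-152-3p and miR-31-5p, against 26.3% of all tested miRNAs. Both are also among the closest profiles to miR-129-5p. Those profiles include the rise on which miR-129-5p was chosen, so nothing is read from this. The miR-9 and miR-132 arms are in both this list and the brain list. The median log2 difference was -1.74, and the values ran from -4.42 for miR-200b-3p to 5.50 for miR-31-5p. miR-152-3p, which targets the DNA methyltransferase DNMT1, had vehicle values of 98.9, 72.0 and 59.6 and WA values of 1269.6, 1522 and 385. Of the 19 tested arms it was the only one with every WA library above every vehicle library, as 7.65% of all tested miRNAs had. None had every WA library below, as 19.6% of all tested miRNAs had. Its log2 difference was 3.57 with a standard error of 0.859, and its limma adjusted p was 0.0601. For miR-31-5p the difference was 5.50 with a standard error of 2.00 and a limma adjusted p of 0.143.

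The epithelial miR-200 arms of this list were at 0 in WA replicates 1 and 2, as given above. Without WA replicate 3, limma called 13 of the 19 arms, 5 higher and 8 lower, when 9.79% of all tested miRNAs were called higher and 35.2% lower. The 5 higher ones were miR-31-5p, miR-152-3p, miR-203a-3p, miR-9-3p and miR-335-5p, and the 8 lower ones were both arms of miR-126, miR-132-3p, both arms of miR-200a, miR-200b-3p, miR-200c-3p and miR-429. miR-203a-3p, a keratinocyte miRNA, had vehicle values of 42.0, 11.995 and 26.6 and WA values of 800.0, 1006 and 1.503. The list thus held miRNAs that were high together with miR-129 in WA replicates 1 and 2 and others that were lower there than in the vehicle libraries.

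miRNAs encoded near the miR-129 genes were also followed. Within 5 Mb of MIR129-1 the RefSeq table has 9 other miRNA genes, and 10 listed arms match them, all tested. Within 5 Mb of MIR129-2 it has 9, and no listed arm matches them. By limma 0 of the 10 arms had an adjusted p under 0.05, with 0 at an unadjusted p under 0.05, against 18 and 86 of the 327 tested miRNAs. The median log2 difference was 0.69, and the lowest limma adjusted p was 0.215, for miR-29b-1-5p. miR-335-5p, whose hairpin lies in the imprinted gene MEST 2288168 bases from MIR129-1, had vehicle values of 98.9, 34.6 and 30.9 and WA values of 383, 354 and 26.3. miR-182-5p ranged from 1893 to 3649 with vehicle and had WA values of 1015, 1304 and 5077. miR-183-5p, from the same cluster as miR-182 and miR-96, had vehicle values of 1596, 2199 and 2150.0 and WA values of 539, 622 and 4980.4. Among these neighbours both arms of miR-335 and miR-29b-1-5p were highest in the libraries in which miR-129 was high. miR-182-5p, both arms of miR-183 and miR-96-5p were lowest there. The remaining neighbours, miR-29a-3p, miR-29a-5p and miR-29b-3p, had values there within the range of the other libraries. Without WA replicate 3, when limma called 9.79% of all tested miRNAs higher and 35.2% lower, it called miR-335-5p higher and miR-183-5p lower. Without vehicle replicate 1, when it called 1.83% higher, it called miR-29b-1-5p higher. miR-335-5p and miR-335-3p are also in the promoter-methylation list, and miR-29b-3p can also come from another hairpin.

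**Figure D5:**
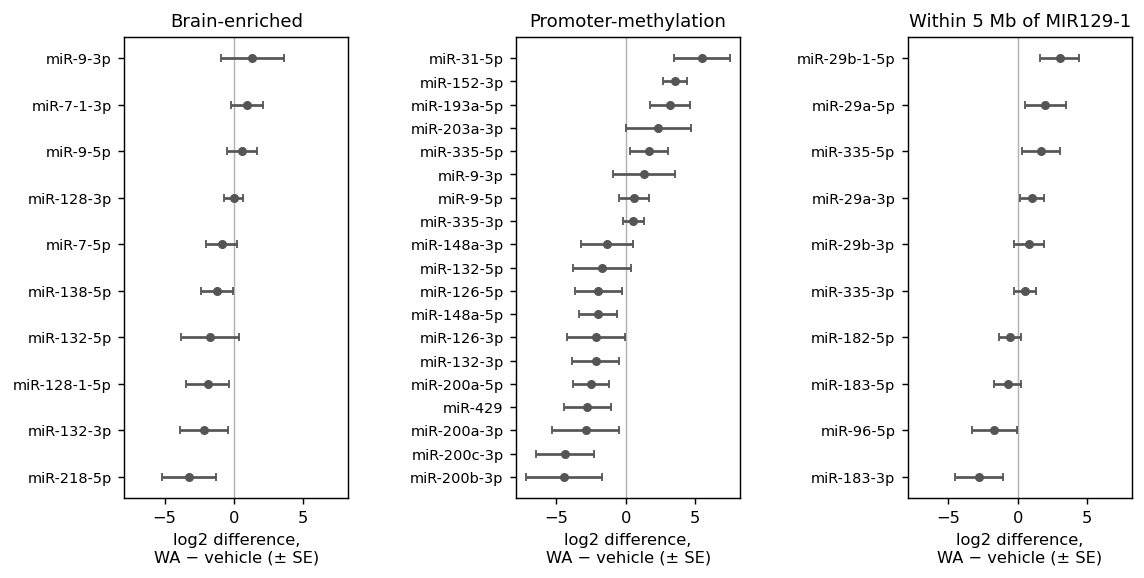
The limma log2 difference of log2(normalized value + 1), WA minus vehicle, is plotted with its standard error for the tested arms of the brain-enriched list (left), the promoter-methylation list (middle) and the miRNAs that the RefSeq table places within 5 Mb of MIR129-1 (right). The values range from -4.42 to 5.50, and none had a limma adjusted p under 0.05 in this fit.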

How the data were processed

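Small RNA libraries of 3 vehicle-treated and 3 WA-treated MDA-MB-231 samples were used. The authors trimmed reads, aligned them with Bowtie to GRCh38, left out those of other noncoding RNAs and assigned what remained to mature miRNAs. In their signal values the authors divided reads by a DESeq2 size factor per library. The authors' ratio, log2 fold change and p-value columns were deposited beside it and were not used. A value was called a whole number of steps within a relative tolerance of 1e-06.

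The groups were compared with limma 3.58.1 (R 4.3.3). It was fitted to log2(normalized value + 1) with a variance trend, two-sided, and with Benjamini-Hochberg adjustment over 327 miRNAs, after a test on simulated data. The simulated libraries of a group shared the same mean values, without a library that stood apart. That test checks the code and does not show how limma performs on these libraries. The filter required 3 libraries with a value of 10 or more. No p is given for the miR-129 arms. They and the lists were chosen with earlier results of these data known. The named miRNAs are the arms, the lists, the 5 closest profiles and the closest sequences. Other steps used Python 3.11.15, scipy 1.17.1 and RNAfold (ViennaRNA 2.7.2). The alternatives were other scalings, pseudocounts and filters, the replicate block and each library left out. Count models on the steps were planned but not run, since too few low values fix the step. The study calls the 3 replicates of each group independent, without saying whether they were separate cultures, and p-values measure the spread between them.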

Additional observations from a re-analysis of the deposited data

How the results depend on the processing

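For both miR-129 arms and for the 5p share, every alternative that gave a value stayed within 1 SD of the replicates. This SD was wide, at 2.42 log2 units for miR-129-5p, 3.81 for miR-129-2-3p and 29.5 percentage points for the share. Removing a single library cannot move a difference of group means by more than this SD. The lack of a filter and the replicate block leave the arm differences unchanged. Nothing is read from these alternatives staying within it. With pseudocounts of 0.1 and 10 the log2 difference was 5.36 and 4.67 for miR-129-5p and 7.43 and 3.27 for miR-129-2-3p. Where all libraries had to reach 10, neither arm was tested. The difference in mean 5p share, 1.34 percentage points, was 28.6 with reads summed and spanned -21.9 to 13.0 when single libraries were removed, the lowest without vehicle replicate 1.

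limma called 18 miRNAs at an adjusted p under 0.05. This count was 0 with upper-quartile scaling (79 unadjusted), 7 with a pseudocount of 0.1, 7 with a pseudocount of 10, 53 with no filter and 0 with a value of 10 in every library (29 unadjusted). When single libraries were removed it spanned 0 to 147, the highest without WA replicate 3, 21 without vehicle replicate 1, and 0 by limma when any of the other 4 was removed (46 to 52 unadjusted). Of the promoter-methylation list, 1 arm (miR-152-3p) was called with no filter, and 0 to 13 when single libraries were removed. The ranges were 0 to 3 for the brain list and 0 to 2 for the neighbours. The cause was not tested. Counted over miRNAs, deviations from the group means of libraries with the same replicate number had correlations of -0.0692, 0.0571 and -0.0874. Those of libraries with different numbers ran from -0.0683 to 0.0844. These values show no pairing by number, and whether replicates were prepared in pairs cannot be told from them. With the replicate block 24 miRNAs were called, and 0 of any list.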

Other observations

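Among the 62 arm pairs with at least 20 reads in every library, the 3 in which the 5p share ranged more widely than in miR-129 were picked once their values were known. The share ran from 0% to 100% for miR-664a, from 8.38% to 85.7% for miR-361 and from 0.889% to 76.9% for miR-455. For miR-664a and miR-455 the 5p arm was the larger in 3 of the 6 libraries, and for miR-361 in 4.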
